A study of Sus scrofa with 12 samples.

Results

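Peaks of N6-methyladenosine (m6A) that the deposited annotation places in the last exon of a multi-exon transcript numbered 3284, on 832 genes, among 13487 peaks listed in 6 replicates of pig longissimus dorsi. They were chosen by annotation alone: the class had to be exon, the transcript had to have 2 or more exons, and the exon number, counted from the 5′ end, had to be the last. Neither enrichment nor p-value entered the choice. The members made up 31.8% of the 10328 exon-class peaks of such transcripts. The tissue is the long muscle of the back, sampled at an age of 5 days. Of 2 breeds studied, Large White is one selected for lean growth and Ningxiang is an indigenous Chinese breed, and each has 3 replicates. m6A was mapped by immunoprecipitating fragmented mRNA with an m6A antibody and sequencing it beside unenriched input, and each replicate has its own peak list. Nothing in the labels ties a replicate to a separate pig. The p-values below therefore speak only of the spread between samples, and that spread may be technical. Sequencing depth is unknown from peak lists, so a gene with no listed peak was below the authors' threshold, and fewer cells of a type and less RNA per cell cannot be told apart.

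m6A is the most common internal modification of mRNA, written by a methyltransferase complex that includes WTAP and removed by demethylases such as FTO. In mammalian transcripts it is known to be densest around the stop codon, in long internal exons and in the last exon, the exon that usually holds the stop codon and most of the 3′ untranslated region. Reader proteins bound there can change the stability, export and translation of the transcript. In muscle the mark is studied for its part in the growth and differentiation of myoblasts. Transcripts that define skeletal muscle were among those with peaks: 12 of 20 listed sarcomere and muscle cytoskeleton genes that had a peak of any class were in all 6 lists, among them DES, MYH1, MYH2 and MYH4, beside 771 of all 2159 genes with a peak, 35.7%.

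The members were very unequal between the strands. On the minus strand 2826 of 6099 exon-class peaks, 46.3%, were members, and on the plus strand 458 of 4229, 10.8%. Properties of the annotation go with this gap. A peak over several exons carries the number of the exon that comes first along the chromosome: a count of blocks, the stretches of exon that a peak covers, from that exon on ran past the last exon for 0 plus-strand and 0 minus-strand peaks. A peak that crosses the last splice junction is therefore numbered as last on the minus strand, where there were 1067 such members, and as an earlier exon on the plus strand, where 533 peaks with bases in the last exon are not members. With those peaks added, 23.4% of plus-strand exon-class peaks reached the last exon. Further, 2004 plus-strand peaks but 239 minus-strand peaks were listed as 3′ untranslated region in place of exon. The minus-strand members can therefore include peaks of a kind that the plus-strand members lack, and results below are given by strand.

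The share of peaks in the last exon was highest in transcripts of few exons. An even spread over exon numbers would give the same order, so the order on its own is no result about the last exon. On the minus strand it was 72.4% in transcripts of 2 exons, 68.8% in those of 3, 64.9% in those of 4 to 5, 46.8% in those of 6 to 10 and 33.7% in those of 11 or more. Were minus-strand peaks spread evenly over exon numbers, 14.2% would be in the last one; exon length was not known for most transcripts and is not part of that figure. On the plus strand the even spread was 11.5%, the members' share 10.8% and the share reaching the last exon 23.4%. Both even spreads are for peaks within 1 exon. A peak over several exons can touch the last one from more positions. Minus-strand members and plus-strand peaks reaching the last exon include such peaks, and plus-strand members leave them out. The shares are therefore not measured as the even spreads are. In plus-strand transcripts of 11 or more exons, 2.16% of peaks were members and 9.27% reached the last exon.

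Within the last exon, the centres of peaks within 1 block lay all along its length and were fewest in its final 25%. The width of a peak keeps its centre away from both ends of the exon, and peaks that cross the last junction are not counted here. Nor are peaks listed as 3′ untranslated region, 2004 on the plus and 239 on the minus strand. Their place within last exons was not examined, so the positions are those of members and not of all m6A peaks. The last splice junction could be read from peaks that cross it in 606 transcripts, and in 606 of 606 all such peaks placed it at the same base. The last exons of known length, 603 in number, had a median of 517 bases with quartiles of 241.5 and 993. They belong to transcripts with a peak over the last junction, so they are not a sample of all last exons. In these, the centres of 619 minus-strand members within 1 block lay at a median of 46% of the exon's length, and 26.7%, 30.0%, 29.1% and 14.2% of them fell in successive stretches of 25% of that length. The 174 plus-strand members had a median of 40.6%, with 8.62% in the final 25%. Where the last exon was 1000 bases or longer, 30.8% of minus-strand and 28.7% of plus-strand members had their centre in its first 400 bases.

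**Figure D1:**
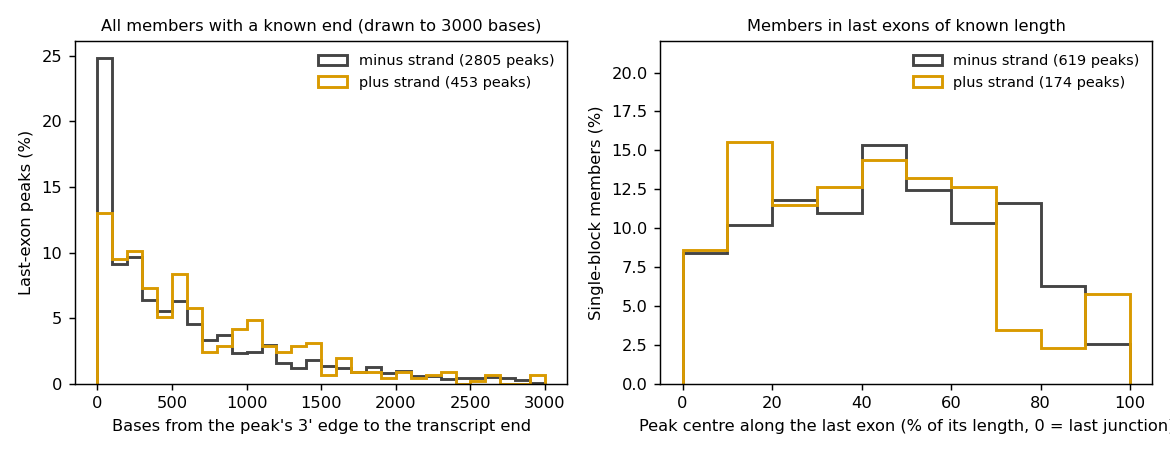
Position of last-exon peaks by strand; the left panel plots the share of peaks against bases from the peak's 3′ edge to the annotated transcript end, and the right panel the share against the peak centre as a percentage of the last exon's length. In the left panel 24.8% of minus-strand and 13% of plus-strand peaks stand within 100 bases of the end, and in the right panel the final 25% of the exon holds 14.2% and 8.62%. Peaks listed as 3′ untranslated region are not plotted.

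Measured from the other side, members on the minus strand ended a median of 390 bases before the annotated end of the transcript, and those on the plus strand 537 bases. Of minus-strand members 697 of 2805 ended within 100 bases of it, and of plus-strand members 59 of 453. Peaks listed as 3′ untranslated region are again not counted. Per list, the minus-strand median was 358.5 to 390 bases in Large White and 414 to 418.5 bases in Ningxiang, and the plus-strand median 499 to 637 bases in Large White and 505 to 630 bases in Ningxiang. The minus-strand medians of the breeds did not overlap, while the plus-strand medians did; neither was tested. The 1067 members that cross the last junction had a median of 142 bases in the last exon and 111 bases upstream of it, and 54.7% of them had more bases in the last exon than before it.

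The number of last-exon peaks overlapped between the breeds over whole lists, and their share of exon-class peaks was slightly lower in every Large White list. Large White lists held 564, 530 and 604 members and Ningxiang lists 512, 521 and 553 (566 ± 37.0 and 528.7 ± 21.5, SD, n = 3; exact two-sided permutation p = 0.2, adjusted p = 0.4 over 4 comparisons). They lay on 467, 440 and 503 genes in Large White and 435, 435 and 468 genes in Ningxiang (exact permutation p = 0.3, adjusted p = 0.4). Numbers of peaks and of genes overlapped. When the strongest 2034 peaks by p of every list were used, the order turned round and the breeds no longer overlapped, with 479, 479 and 486 members in Large White and 512, 498 and 503 in Ningxiang, and 407, 410 and 411 genes in Large White and 435, 420 and 431 in Ningxiang (exact permutation p = 0.1 for each, n = 3). On the plus strand alone there were 72, 65 and 75 members in Large White and 80, 81 and 85 in Ningxiang (exact permutation p = 0.1, n = 3). The minus strand went the other way and overlapped, with 492, 465 and 529 members in Large White and 432, 440 and 468 in Ningxiang (exact permutation p = 0.2, n = 3). The share was 31.0%, 31.6% and 31.2% in Large White and 32.2%, 31.8% and 33.0% in Ningxiang, with no overlap and a difference of -1.06 percentage points (exact permutation p = 0.1, the smallest that 3 against 3 allow; adjusted p = 0.4). The median exonic width of members was 218.7 ± 14.2 bases in Large White and 219.7 ± 15.9 bases in Ningxiang (SD, n = 3; exact permutation p = 0.9, adjusted p = 0.9).

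The lower share in Large White was found on the plus strand. There it was 9.64%, 9.31% and 9.58% in Large White and 12.6%, 12% and 12.3% in Ningxiang, a difference of -2.79 points that exceeds the SDs of 0.174 and 0.283 (exact permutation p = 0.1, n = 3). On the minus strand the share was 46.0%, 47.5% and 46.0% in Large White and 45.3%, 45.7% and 47.6% in Ningxiang, which overlap, and the difference had the other sign, 0.30 points (exact permutation p = 0.6, n = 3). Counting every plus-strand peak with a block in the last exon, a count added after these values were seen, the shares were 21.4%, 22.3% and 23.2% in Large White and 25.5%, 25.0% and 23.5% in Ningxiang (exact permutation p = 0.1, n = 3). Among peaks of 1 block on both strands the difference was 0.02 points (exact permutation p = 1, n = 3).

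**Figure D2:**
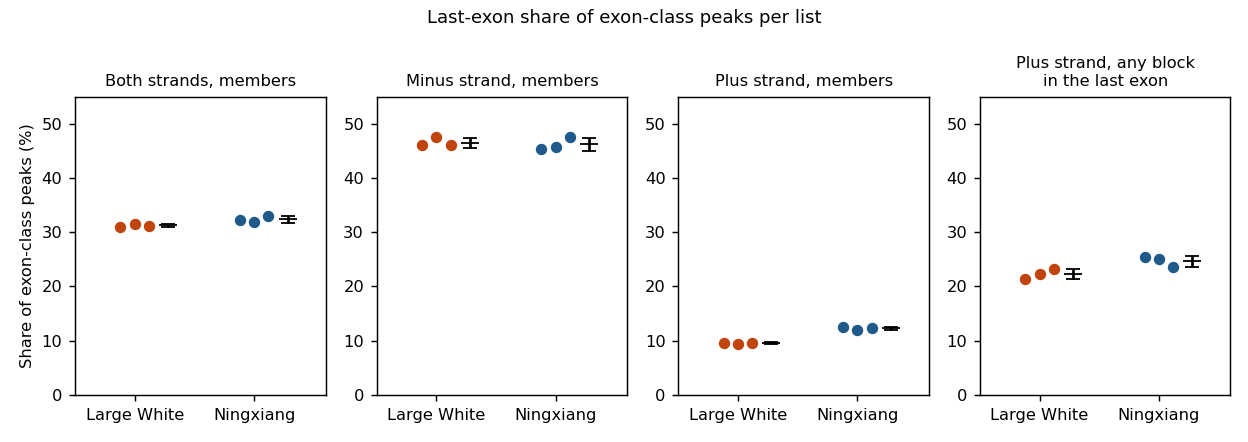
Share of exon-class peaks in the last exon, in percent, with 1 point per list, the mean and SD (n = 3) in black, and Large White left of Ningxiang in each panel. On the plus strand the Large White lists lie at 9.31% to 9.64% and the Ningxiang lists at 12% to 12.6%, while on the minus strand the breeds overlap.

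Of 145 plus-strand genes with a member, 63 were in more Ningxiang than Large White lists, 44 in more Large White than Ningxiang lists and 38 in as many. A member in 3 of 3 Ningxiang lists and 1 of 3 Large White lists was found on 9 of them, and the opposite on 1. On the minus strand 243 of 687 genes were in more Large White lists and 185 in more Ningxiang lists. There a member in 3 of 3 Large White lists and 1 of 3 Ningxiang lists was found on 28 genes, and the opposite on 12. The opposite order on the 2 strands was not tested. The same counts for genes with other exon-class peaks are not given here, so these have no background and describe the members only. List length also differed, with 2373, 2214 and 2533 peaks of all classes in Large White and 2034, 2111 and 2222 in Ningxiang.

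Within a list, last-exon peaks had a higher deposited fold, read here as the ratio of immunoprecipitated over input signal, than other exon-class peaks. Their median fold was 2.72, 2.74 and 2.63 in the Large White lists and 2.57, 2.73 and 2.76 in the Ningxiang lists, against 2.41, 2.45 and 2.375 for other exons in Large White and 2.34, 2.43 and 2.47 in Ningxiang. The last-exon median was the higher in 6 of 6 lists, by 0.279 ± 0.0304 (SD, n = 6; exact sign-flip permutation p = 0.0312, the smallest that 6 lists allow; adjusted p = 0.0625 over 4 comparisons, above the threshold of 0.05). It was also higher in 6 of 6 lists on the minus strand, by 0.275, on the plus strand, by 0.593, and among peaks of 1 block, by 0.179. Other exon-class peaks, here and below, include the 533 plus-strand peaks with bases in the last exon that are not members. With any block in the last exon counted, the fold difference over both strands was 0.254, higher in 6 of 6 lists. The lists describe many of the same sites, so this p speaks of agreement between lists and not of independent genes.

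Last-exon peaks were also listed again more often. In the last exon 40.25% ± 2.98 of a list's peaks shared at least 1 base with a peak in each of the other 5 lists, against 35.83% ± 3.33 in other exons (SD, n = 6; higher in 6 of 6 lists, exact sign-flip permutation p = 0.0312, adjusted p = 0.0625). The difference of 4.42 points was 2.51 without Ningxiang replicate 1 (exact permutation p = 0.188, n = 5). It was 6.65 points on the minus strand, with 6 of 6 lists higher, and -3.07 points on the plus strand, with 2 of 6 higher.

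By p-value the strands differed in direction. On the plus strand the median log10 p of last-exon peaks was -7.46 ± 0.567, weaker than the -10.05 ± 0.627 of other exons in 6 of 6 lists (SD, n = 6; exact sign-flip permutation p = 0.0312). On the minus strand it was -9.89 ± 0.847 in the last exon and -9.52 ± 0.758 in other exons, stronger in 5 of 6 lists (exact permutation p = 0.0938, n = 6). The effect on the minus strand minus that on the plus strand was -2.97 ± 1.28, below 0 in 6 of 6 lists (exact permutation p = 0.0312). With both strands the difference was 0.346 (exact permutation p = 0.0625, n = 6, adjusted p = 0.0833). On the plus strand the other exons include the 533 peaks that cross into the last exon. With any block in the last exon counted, the difference over both strands was -0.023 (exact sign-flip permutation p = 0.906, n = 6). The exonic width of last-exon peaks was 219.2 ± 13.5 bases against 209.8 ± 0.753 bases in other exons (SD, n = 6; exact permutation p = 0.125, adjusted p = 0.125). Width differed by 1 to 28 bases in 4 lists and not at all in Large White replicates 2 and 3.

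**Figure D3:**
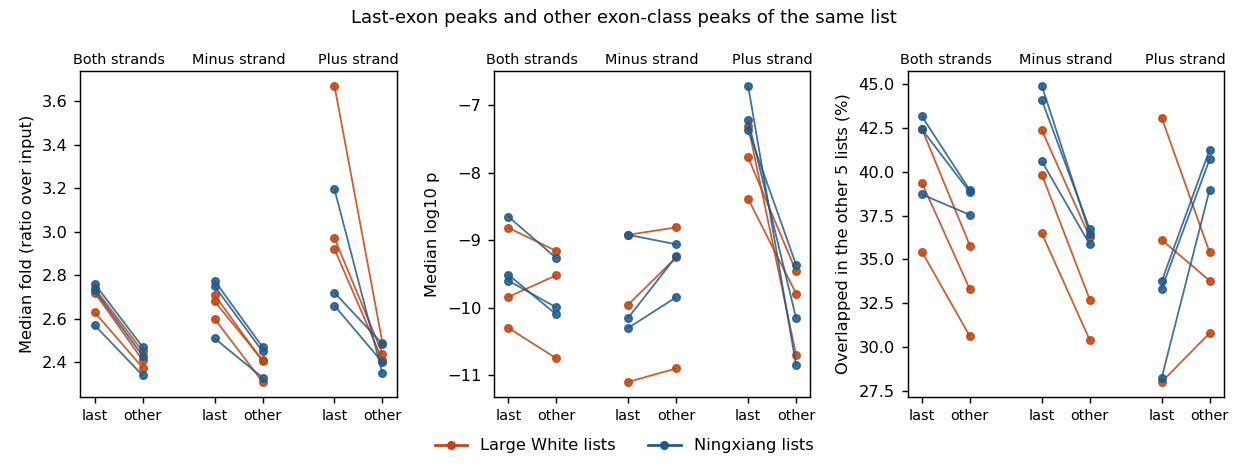
Median fold, median log10 p and share of peaks overlapped in all other 5 lists, with a line per list joining its last-exon peaks (left) to its other exon-class peaks (right), for both strands and for each strand. The fold is higher in the last exon in 6 of 6 lists in each group. On average the log10 p and the overlap differences take opposite directions on the strands, but not in every list. Overlap is higher in the last exon on the plus strand in 2 of 6 lists, and log10 p is stronger on the minus strand in 5 of 6.

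Genes with a last-exon peak in all 6 lists numbered 193 of 832, or 23.2%, and those in a single list 229. For other exon-class peaks, 321 of 1451 genes, 22.1%, were in all 6 lists. By strand, 25.6% of minus-strand and 11.7% of plus-strand genes with a member had 1 in all 6 lists. Of the 193 genes, 83 had no other exon-class peak in any list and 22 had one in all 6 lists. Joining members of a gene whose exonic bases overlap gave 1033 regions, 191 of them in all 6 lists and 343 in 1 list. Most genes, 685, had 1 region.

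The 12 regions that were strongest by p in every list included IGF2, 2 matrix genes and 2 metabolic genes. IGF2, the fetal growth factor of the insulin family, led them, with folds of 3.75, 3.46 and 4.18 in Large White and 3.28, 3.44 and 4.84 in Ningxiang. Its log10 p was -4450, -4820 and -3260 in Large White and -1320, -1610 and -1910 in Ningxiang. All 6 lists share the site, at chromosome 2, 1472038 to 1472335 (susScr11), in exon 5 of 5, with 1 peak each. Values of this size depend on read number as well as on fold, and IGF2 RNA level was not analysed here.

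COL5A2, a chain of type V collagen, came next. Its region at chromosome 15, 93613205 to 93614329, covered 450 exonic bases, in exon 54 of 54 and, across the junction, in the exon before it. Folds were 3.45, 3.58 and 3.79 in Large White and 2.84, 3.37 and 3.27 in Ningxiang. POSTN, the matrix protein periostin, had 2.76, 2.78 and 2.72 in Large White and 2.41, 2.84 and 2.61 in Ningxiang. GLUL, which makes glutamine, ranged from 2.26 to 2.92 over the lists, and GYS1, the glycogen synthase of muscle, from 2.63 to 3.31, at chromosome 6, 54235554 to 54236061. ENG, the endothelial co-receptor of TGF-beta, had the highest minimum fold of the group, with 3.95 to 5.94, over 809 bases at chromosome 1, 268309797 to 268310605. CAPZB, which caps actin filaments at the Z-disc, had 2.60, 2.60 and 2.75 in Large White and 2.0, 2.2 and 2.26 in Ningxiang. RAB11B, a GTPase of recycling endosomes, ranged from 3.05 to 4.26, PDIA3, a disulphide isomerase of the endoplasmic reticulum, from 2.47 to 3.27, and C7H6orf125 from 2.36 to 3.57. RPL5, a protein of the large ribosomal subunit, ranged from 1.76 to 2.22 and ITM2B, a membrane protein, from 1.70 to 2.35. Ribosomal protein genes have near-identical copies elsewhere in mammalian genomes, so the assignment of RPL5 reads is uncertain. Every one of these 12 regions is on the minus strand, as are 176 of the 193 genes with a last-exon peak in all 6 lists.

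A separate set of regions was highest by fold. Where a list has several peaks in a region or gene, the fold given is the highest and the p the strongest, which may belong to different peaks. The region with the highest minimum fold was on EGR2, a zinc-finger transcription factor, at chromosome 14, 66285839 to 66288440: its folds were 8.22, 6.84 and 5.79 in Large White and 8.29, 14.9 and 6.77 in Ningxiang. Its log10 p was -3.76 in Ningxiang replicate 2, the list with the fold of 14.9. FRS2, the adaptor of fibroblast growth factor receptors and a plus-strand gene, had 26.2, 4.45 and 5.19 in Large White and 4.72, 5.90 and 6.26 in Ningxiang. MTF1, the metal-responsive transcription factor, reached 26.5 in Ningxiang replicate 2 with a lowest fold of 3.85. In FRS2 and MTF1 a single list stood far above the others. SLC9A2, a sodium-proton exchanger, ranged from 4.61 to 11.5, ZNF205, a zinc-finger protein, from 4.40 to 10.3, and TENT5C, a poly(A) polymerase, from 3.82 to 7.90. ENG alone belonged to both groups.

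Some last exons carried several separate regions. USF3, a transcription factor on the plus strand, had 8, of which 3 were in all 6 lists. APC, the scaffold that keeps beta-catenin low in Wnt signalling, had 7, of which 5 were in all 6 lists, between 116913833 and 116920298 on chromosome 2. The 5 APC regions had lowest folds of 2.73 to 3.82. ZFPM2, a cofactor of GATA factors, had 6 regions, none of which was in more than 3 lists. ADNP, FAM107A and GLI2, the hedgehog transcription factor, tied at 5 each. Regions of 1 gene share a transcript and are not independent.

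The pathway lists differed in how many of their genes had a last-exon peak, from 7 of 10 immediate early genes and 9 of 16 lipid genes to 2 of 17 sarcomere genes; these differences were not tested. Over all genes with an exon-class peak, 832 of 1822, 45.7%, had one in the last exon, and the share was 67.5% on the minus and 18% on the plus strand. Genes of these lists named below without a member in all 6 lists were chosen after their values were seen. Myogenic regulators had 7 of 13, made up of 7 of 10 on the minus strand and 0 of 3 on the plus strand, near the shares over all genes on the minus strand. MYOG, the transcription factor of terminal muscle differentiation, showed a single recurring site: the peaks of all 6 lists began at base 113783233 of chromosome 9, covered the last exon of 122 bases whole and went on upstream across the junction. Its folds were 2.68, 2.25 and 2.90 in Large White and 2.98, 2.61 and 2.26 in Ningxiang. SIX4, a homeobox factor of muscle precursors with a last exon of 4362 bases, had 4.32, 5.27 and 4.64 in Large White and 3.73, 3.16 and 5.09 in Ningxiang. MEF2C, which acts with MYOG, had 1.79 to 2.21 and TEAD1, the effector of the Hippo pathway, 1.82 to 2.72, both in all 6 lists. MSTN, the inhibitor of muscle growth, had a member in 5 lists, all but Large White replicate 3. MYF6 had one in Ningxiang replicate 3 only, but a peak of any class in 3 Large White lists and 1 Ningxiang list.

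Of 17 sarcomere genes with an exon-class peak, 2 had one in the last exon, CAPZB in all 6 lists and TPM2 in Large White only. On the minus strand alone this was 2 of 9. None of the 4 calcium-handling genes had a last-exon peak, and 3 of those are on the plus strand. In the insulin-like growth factor list 5 of 12 genes had one, 4 of 8 on the minus strand and 1 of 4 on the plus strand. IGF1R, the receptor of the pathway, ranged from 2.58 to 14.0 and FOXO3, a transcription factor that drives muscle protein breakdown, from 2.01 to 3.86, in all 6 lists. AKT1 had a member in Ningxiang replicate 1 only and IGF2R in Ningxiang replicates 1 and 3 only. Both genes had other exon-class peaks in all 6 lists.

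Of 16 fat and lipid genes with an exon-class peak, 9 had one in the last exon, 3 of them in all 6 lists. By strand, 5 of 6 minus-strand and 4 of 10 plus-strand genes had one in the last exon. ACACA, the acetyl-CoA carboxylase, had folds of 2.70, 2.40 and 2.55 in Large White and 3.9, 3.39 and 3.93 in Ningxiang. ACSL1, which activates long-chain fatty acids, had 2.40, 2.18 and 2.08 in Large White and 1.77, 2.09 and 1.90 in Ningxiang, and PPARA, the nuclear receptor of fatty acid oxidation, ranged from 2.13 to 2.75. The ACACA folds did not overlap between breeds, and those of ACSL1 did. Other genes named above, such as COL5A2, CAPZB and GYS1, did not overlap either, and how many of all genes do so was not counted. No normalisation of folds between lists is stated, so this is no comparison of methylation. FASN, the fatty acid synthase, had a last-exon member in Ningxiang replicates 1 and 3, and LEP, the fat cell hormone, in Large White replicate 3 with a log10 p of -2.89. Of 9 energy metabolism genes 4 had members, 4 of 8 on the minus strand and 0 of 1 on the plus strand. UCP2, a mitochondrial carrier, had folds of 2.66 to 9.30 in all 6 lists, and its paralogue UCP3, in 1 Large White list and 3 Ningxiang lists, had 1.83 to 2.02.

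**Figure D4:**
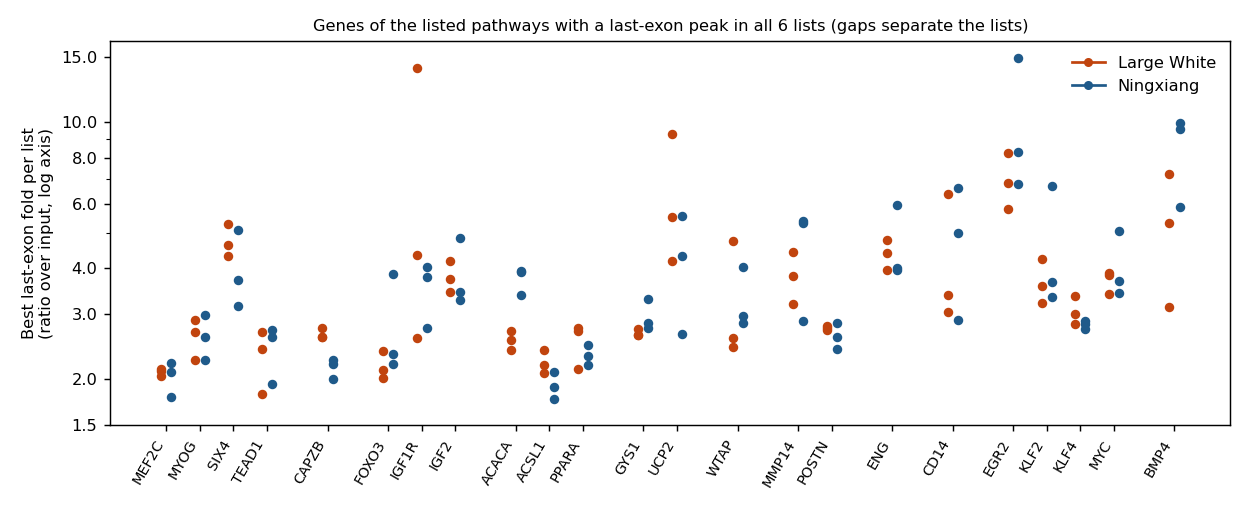
Best last-exon fold per list, on a log axis, for genes of the pathway lists with a last-exon peak in all 6 lists, 1 of which is not shown, with Large White left of Ningxiang for each gene. EGR2 lies highest, from 5.79 to 14.9, and MEF2C among the lowest, from 1.79 to 2.21.

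The m6A machinery itself was marked in the last exon on WTAP, with folds of 2.44, 2.59 and 4.75 in Large White and 4.04, 2.85 and 2.97 in Ningxiang. FTO had a last-exon member in Ningxiang replicate 1 only, and ELAVL1, an RNA-binding protein, in Large White replicate 1 only. A peak of any class stood on FTO in 3 lists of each breed and on ELAVL1 in 1 list of each breed. Immediate early genes, whose transcripts are short-lived, had members on 7 of 10 genes, 5 of 5 on the minus strand. MYC, a transcription factor of cell growth, had 3.83, 3.89 and 3.4 in Large White and 3.69, 3.43 and 5.04 in Ningxiang. KLF2 ranged from 3.23 to 6.69 and KLF4 from 2.73 to 3.37, both zinc-finger factors. In the signalling list 6 of 12 genes had members, 5 of 5 on the minus strand and 1 of 7 on the plus strand. BMP4, a bone morphogenetic protein, had 5.32, 3.14 and 7.23 in Large White and 9.94, 9.59 and 5.88 in Ningxiang.

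Markers of other cell types in the muscle also carried last-exon peaks. Fibroblast and matrix genes had 4 of 12, made up of 4 of 5 on the minus strand and 0 of 7 on the plus strand. MMP14, a membrane-bound protease, had folds of 2.88 to 5.38 in all 6 lists. THBS1, thrombospondin, had a member in 3 Large White lists and 1 Ningxiang list, and other exon-class peaks in all 6 lists. The endothelial list had 1 of 4, ENG, with 1 of 1 on the minus strand and 0 of 3 on the plus strand. The immune list had 3 of 7, made up of 3 of 4 on the minus strand and 0 of 3 on the plus strand. CD14, the monocyte co-receptor for bacterial lipopolysaccharide, had folds of 2.89 to 6.63 in all 6 lists. CCL2, a chemokine, and TLR2 were in 3 Large White lists and 1 Ningxiang list. Peak lists give no RNA level, and the part of these cells in any difference between lists was not tested.

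Few genes had a last-exon peak in every list of one breed and in none of the other breed. In all 3 Large White lists and 0 Ningxiang lists there were 15, 1.8% of the 832, and in all 3 Ningxiang lists and 0 Large White lists 6, 0.721%. Among the 1451 genes with another exon-class peak the same rule called 22, 1.52%, for Large White and 11, 0.758%, for Ningxiang, and among the 1822 genes with any exon-class peak it called 24, 1.32%, and 12, 0.659%. The last exon lay near this background. The excess for Large White was not kept at equal list length: with the strongest 2034 peaks of every list there were 12 such genes for Large White and 13 for Ningxiang. For 1 gene such a pattern has a two-sided Fisher's exact p of 0.1, so no gene can be called different on its own. Of the 15 Large White genes 8 had a peak of some class in a Ningxiang list, and of the 6 Ningxiang genes 1 had a peak in a Large White list.

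TPM2, a tropomyosin of the thin filament, was the strongest of them by p. Its last-exon peak had folds of 1.87, 1.93 and 1.94 and log10 p of -326, -268 and -208 in the 3 Large White lists, at chromosome 1, 236402249 to 236404475. It covered the whole last exon of 149 bases in Large White replicates 1 and 2 and 121 bases in replicate 3. No Ningxiang list held a peak there, while a second TPM2 peak over internal exons stood in all 6 lists, with folds of 1.84, 1.85 and 1.74 in Large White and 1.76, 1.87 and 1.84 in Ningxiang. TPM2 and GON7, a subunit of a transfer RNA modifying complex, were the only breed-only genes that stayed when the stronger 50% of each list by p was used. GON7 had folds of 1.71, 2.25 and 2.83 in Ningxiang. Tropomyosin genes resemble one another, so some TPM2 reads may be shared.

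The breed-only genes with the highest mean fold had weaker p-values than TPM2, with log10 p of -2.86 to -18.7 in the 8 Large White genes named here. RGS4, a regulator that ends signalling through G proteins, had folds of 4.56, 4.40 and 14.3 in Large White, and RNASEH2B, a subunit of ribonuclease H2, 3.20, 2.41 and 10.7. In both, replicate 3 stood far above the others. The RGS4 peaks formed no region common to the 3 lists, since that of replicate 2 lay apart from those of replicates 1 and 3, and the same held for MCMBP and TMIGD3. MAP3K7, the kinase TAK1 of TGF-beta and inflammatory signalling, had 2.73, 3.94 and 2.65, PTPMT1, a mitochondrial phosphatase, 1.64, 4.89 and 2.60, and FOXRED2, a flavoprotein of the endoplasmic reticulum, 2.70, 2.49 and 3.54. SPRYD3 had a mean of 2.84 ± 0.503 and MCMBP, which binds the replicative helicase, 2.67 ± 0.674 (SD, n = 3). TMIGD3 had 3.95 ± 2.17 (SD, n = 3) and members whose nearest gene is listed as ADORA3, so its assignment is uncertain. Named after their values were seen, TRIM55, a ubiquitin ligase of the sarcomere, had 2.17, 1.63 and 1.89, POPDC3, a membrane protein of striated muscle, 1.89, 1.89 and 2.41, and SFRP4, a Wnt antagonist, 1.78, 2.73 and 2.20, each in Large White. All 3 also had peaks outside the last exon in Ningxiang lists. The SFRP4 member of Large White replicate 2, with the fold of 2.73, had 85 bases in the last exon and 419 outside it. The stretch it spans overlaps the Ningxiang peaks over internal exons of SFRP4.

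In Ningxiang, folds of NUBP2, which helps to assemble iron-sulphur clusters, were 3.73, 4.14 and 13.7, those of ELAC2, an endonuclease for the 3′ ends of transfer RNAs, 3.72, 2.87 and 4.81, and those of PMF1, a kinetochore protein, 2.69, 3.31 and 2.72. PM20D1, an enzyme of N-acyl amino acids, had 2.30, 3.19 and 2.22. PITPNC1, a phospholipid transfer protein on the plus strand, had 2.39, 2.66 and 3.21, but its call does not reflect missing peaks in Large White. There, replicates 1 and 2 had peaks over 258 and 229 bases of the same last exon at chromosome 12, with folds of 5.64 and 2.99, whose first 9 bases lie in exon 8 of 9, the number they carry. Large White replicate 3 had a peak of 9 blocks, listed as 5′ untranslated region, that ends at base 14015156, where the last-exon member of Ningxiang replicate 1 also ends. Counting any block in the last exon, PITPNC1 was no longer Ningxiang only, and the other 5 were.

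**Figure D5:**
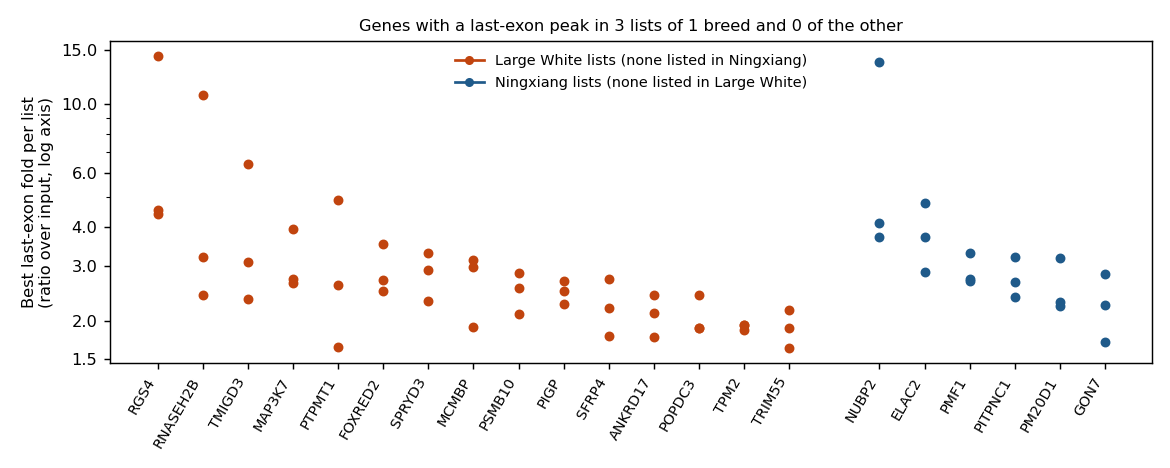
Best last-exon fold per list, on a log axis, for the 15 genes with a last-exon peak in 3 Large White lists and 0 Ningxiang lists and the 6 genes with the opposite pattern; each point is 1 list of the breed that has the peaks. TPM2 lies at 1.87 to 1.94, while single lists set the highest points of RGS4, 14.3, and NUBP2, 13.7.

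Lists of one breed shared slightly more last-exon genes than lists of different breeds. The Jaccard index, the shared part of the genes in either list, averaged 0.547 ± 0.0216 over 6 pairs within breeds and 0.512 ± 0.0203 over 9 pairs between them (SD; difference 0.0346, one-sided exact permutation p = 0.1, the smallest that 10 splits of the lists allow). For genes with other exon-class peaks it was 0.538 ± 0.0337 and 0.514 ± 0.0187. Each list enters several pairs, so these SDs do not measure the error of the difference.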

How the data were processed

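The processed data were 6 peak lists, 1 per replicate; each was assigned to the immunoprecipitated sample whose description names it. Per the submitters' processing notes, the build was susScr11 and the tools named are HOMER, ChIPseeker 1.30.2 and FastQC 0.11.9. Aligner and peak caller: not given in the sources used here. Per the file headers, the deposited fold is a linear ratio for a peak. The deposited p-value and its log10, used here as a score to rank peaks, belong to the same peak. These are the authors' values. They were tested within a list only; values of several lists are set side by side, or ranked by their lowest, as a description. Starts were printed after adding 1.

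Exon numbers were turned round on the minus strand. The gene of a member is the one in its exon annotation; 24 members have another nearest gene, and 5 with a shortened name text were named from the nearest gene. No member was filtered out. Per gene and list the highest fold and the strongest p are given. Between the breeds, values per list were tested by exact permutation (two-sided), and last-exon with other exon-class peaks by exact sign flips over lists, each with Benjamini-Hochberg adjustment over 4 comparisons. Python 3.11.15, pandas 2.3.3, NumPy 2.4.6, SciPy 1.17.1 and matplotlib 3.10.9 were used, and the counting was tested on simulated data.

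Named genes are the 12 regions in all 6 lists strongest by their weakest p, the 8 with the highest minimum fold, up to 8 breed-only genes per breed by mean fold, genes with most regions, and members of the pathway lists in all 6 lists; 1 such gene is counted but not reported here. Members, lists and rules were chosen with earlier results of these data known. No 2 lists shared a peak with the same coordinates, fold and p. A planned count of the GGACT motif was not run, because no genome of the files' build was used here; no sequence is printed for the same reason.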

Additional observations from a re-analysis of the deposited data

Results flagged for a closer look

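The difference in median log10 p between last-exon and other exon-class peaks was -0.32 in Large White replicate 1 and 0.345 to 0.615 in the other 5 lists, a gap past the 95% critical value of Dixon's test; by that level, chance gives such a gap in about 1 of 20 groups, and several per-list results were looked at.

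On average the same difference took opposite directions on the strands: the minus-strand effect minus the plus-strand effect was -2.97 ± 1.28 (SD, n = 6; exact sign-flip permutation p = 0.0312). On the plus strand all members had 1 block, and the other exon-class peaks include 533 that cross into the last exon. On the minus strand 1067 of 2826 members crossed a junction. The part of this in the difference was not tested.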

How the results depend on the processing

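The fold of last-exon over other exon-class peaks kept its sign under every alternative run, 0.273 to 0.289 without 1 list each, where 5 lists cannot give an exact p below 0.0625. The overlap difference was 2.51 to 5.64 without 1 list, 2.29 with the stronger 50% of peaks by p (exact p = 0.125) and -3.07 on the plus strand. The log10 p difference was 2.59 on the plus strand, -0.37 on the minus strand, -0.023 with any block in the last exon and 30.8 as a mean; without 1 list it was 0.292 to 0.479. Between breeds, with every list held to an equal number of peaks, Large White minus Ningxiang turned to -23 members and -19.3 genes, and on the plus strand it was -11.3 members and -10 genes, each with exact permutation p = 0.1 and no overlap. The minus-strand difference was 48.7 members and 34 genes, each with exact permutation p = 0.2 and overlap. The share difference turned to 0.30 on the minus strand and 0.021 for peaks of 1 block. The width difference between breeds, -1 base, turned to 8.5 with the stronger 50%, 27.2 at equal numbers, 20.8 on the plus strand, 6.5 on the minus strand, 0.5 for 1 block and 7.67 with any block, and was -9.17 to 8.17 without 1 list. The width difference between last and other exons was 27.9 with the stronger 50%, 14.6 at equal numbers, -5.25 on the plus strand, 20 on the minus strand and 14.5 with any block; the cause was not tested. Large White only genes were 6 with the stronger 50% (1 of the 15 remained), 2 on the plus strand and 6 for 1 block. At equal numbers Large White only genes were 12 (11 of the 15 remained) and Ningxiang only genes 13 (4 of the 6 remained); Ningxiang only genes were 1 on the plus strand. Without 1 list these counts were 23 to 28 and 7 to 21, since the rule then asks for fewer lists.

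Same-numbered lists did not deviate together (correlations of gene presence -0.00236, 0.00855 and -0.0383), so the replicate block rests on numbers alone; with it the differences stayed at 37.3 members, -1.06 points, 24 genes and -1 base, with exact p of 0.25, 0.25, 0.25 and 0.75. Depth limits which peaks could be listed and is unknown here.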
